A study of Mus musculus with 10 samples.

Results

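Transcripts of hepatocytes, the main cells of the liver, were followed through 10 arrays of mouse melanoma tissue. A list of 38 genes was taken, and a gene counted as measured where a probe set of the deposited table carried its symbol and no other gene's. Of the 38 genes, 36 were measured, by 39 probe sets, among 19938 genes in all. Gc and Ass1 were not analysed here. The list and the interest in arrays 306, 309 and 310 came from the levels themselves, chiefly from high albumin on those arrays, so the levels of the listed genes are given as a description and support nothing.

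Each array held total RNA of a melanoma tumour from a male mouse. The tumours fell into 2 groups by their labels, Exercise (5 arrays, titled 300, 301, 306, 309 and 310) and non-Exercise (5 arrays, titled 326, 327, 329, 330 and 331). The sources used here name no strain, age, kind of exercise, tumour origin or tumour site. RNA was isolated with either of 2 kits, one of them meant for fatty tissue, and which tumour had which kit is not recorded, so the kit could not be set against the levels. Nothing in the labels says that the tumours came from separate mice, so a p-value measures only the spread between these samples.

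Hepatocytes make most proteins of the blood plasma, among them albumin, transport proteins, apolipoproteins and clotting factors. They also turn ammonia into urea, break down amino acids, release glucose and oxidise foreign compounds through cytochromes P450. Liver genes of this kind are commonly switched on by the factors HNF1, HNF4, FOXA and C/EBP, which bind close to the start of transcription. In a piece of tumour, fewer cells of a type and less RNA per cell cannot be told apart.

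Promoters of 4 of the genes are shown because albumin had the widest range over the arrays, and because the genes of the 3 fibrinogen chains lie close together in the mouse genome and did not behave alike on these arrays. Each is the RefSeq sequence of build GRCm38.p6 from 250 bases before to 50 bases after the annotated start, in the direction of the gene. Capitals mark matches to TATAAA, the HNF1 core word GTTAAT, the HNF4 core word CAAAGTC, the FOXA word TGTTTAC or CCAAT, read on both strands. The windows are chr5:90460620-90460919 on the plus strand for Alb, chr3:83025903-83026202 on the plus strand for Fga, chr3:83049814-83050113 on the minus strand for Fgb and chr3:83007474-83007773 on the plus strand for Fgg.
Alb: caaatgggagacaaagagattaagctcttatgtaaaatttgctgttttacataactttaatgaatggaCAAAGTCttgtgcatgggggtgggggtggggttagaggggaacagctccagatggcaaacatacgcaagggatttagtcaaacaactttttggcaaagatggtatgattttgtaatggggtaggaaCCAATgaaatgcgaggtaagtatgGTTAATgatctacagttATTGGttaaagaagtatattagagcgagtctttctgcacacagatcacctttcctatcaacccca
Fga: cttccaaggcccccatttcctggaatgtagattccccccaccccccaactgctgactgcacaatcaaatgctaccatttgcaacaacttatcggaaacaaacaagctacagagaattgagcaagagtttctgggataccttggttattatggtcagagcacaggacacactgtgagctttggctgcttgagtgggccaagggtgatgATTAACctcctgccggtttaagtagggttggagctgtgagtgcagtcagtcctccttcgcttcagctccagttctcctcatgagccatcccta
Fgb: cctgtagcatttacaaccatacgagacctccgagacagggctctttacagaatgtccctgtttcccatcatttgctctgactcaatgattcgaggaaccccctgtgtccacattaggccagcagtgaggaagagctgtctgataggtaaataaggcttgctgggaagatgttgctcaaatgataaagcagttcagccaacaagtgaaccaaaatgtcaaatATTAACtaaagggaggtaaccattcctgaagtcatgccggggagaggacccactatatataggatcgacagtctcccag
Fgg: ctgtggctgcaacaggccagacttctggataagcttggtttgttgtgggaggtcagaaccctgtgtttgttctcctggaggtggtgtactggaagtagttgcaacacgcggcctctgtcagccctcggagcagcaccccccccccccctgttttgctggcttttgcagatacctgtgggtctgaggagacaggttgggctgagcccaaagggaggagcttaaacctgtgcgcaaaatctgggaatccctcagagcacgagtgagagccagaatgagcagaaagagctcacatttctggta
The Alb window held an HNF4 core word whose first base lay at -182, CCAAT at -56, an HNF1 core word at -32 and CCAAT on the opposite strand at -15, counted from the start of transcription. The Fga and Fgb windows each held 1 match, an HNF1 core word on the opposite strand, at -43 in Fga and at -29 in Fgb. The Fgg window held none of these letters. Fga, whose measured levels stayed flat on these arrays, and Fgb, whose levels did not, held the same match. The Fga levels were low throughout, as given below. Whether the match bears on the levels was not tested.

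Windows were found for 30 of the 36 measured genes. The HNF1 core word was in 9 of them (30.0%), against 8.24% of all 27025 promoters searched. TATAAA was in 11 (36.7%, against 15.7%), the HNF4 core word in 4 (13.3%, against 5.0%) and the FOXA word in 3 (against 4.05%). CCAAT was in 12 windows (40.0%), close to its share of all promoters, 41.1%. A match of this kind is a description of the letters and not of a bound site.

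Levels are the authors' log2 values after quantile normalization between arrays, so 1 unit stands for a doubling if the deposited scale is log2. Folds are ratios on that scale and understate changes of genes near the dim end. No detection call came with the table, so a dim level was set on each array as the 95th percentile of 1027 olfactory receptor genes, which tumours were taken not to use. It lay between 8.57 and 8.86. The median olfactory receptor gene lay between 7.03 and 7.26.

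Albumin, the main carrier protein of plasma, set arrays 306, 309 and 310 apart from the other 7. Its level was 7.05, 7.47, 12.77, 12.97 and 12.28 on Exercise arrays 300, 301, 306, 309 and 310, against 7.41, 7.71, 8.30, 6.84 and 9.22 on non-Exercise arrays 326, 327, 329, 330 and 331. Relative to the non-Exercise mean it was 29.4-fold higher on array 306, 33.7-fold on 309 and 20.9-fold on 310. The groups overlapped, since albumin on Exercise arrays 300 and 301 was below the dim level. Among non-Exercise arrays only 331 was above it, so the folds are set against a mean of mostly dim levels.

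For 30 of the 36 measured genes the 3 highest of the 10 arrays were 306, 309 and 310, a pattern that 3.79% of all genes had. Arrays 306, 309 and 310 were 32, 33 and 32 times out of 36 above every non-Exercise array, where the shares of all genes were 18.7%, 23.9% and 19.3%. Exercise array 300 was above all of them for 4 genes (24% of all genes), which were Rbp4, Hp, Apoc3 and Cyp2e1. Exercise array 301 was above all of them for 0 of 36 (19.2% of all genes). The median of the listed genes lay 1.63, 1.53 and 1.20 above the non-Exercise mean on arrays 306, 309 and 310, and at -0.07 and -0.09 on arrays 300 and 301. Over all genes these medians lay between -0.11 and 0.01.

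**Figure D1:**
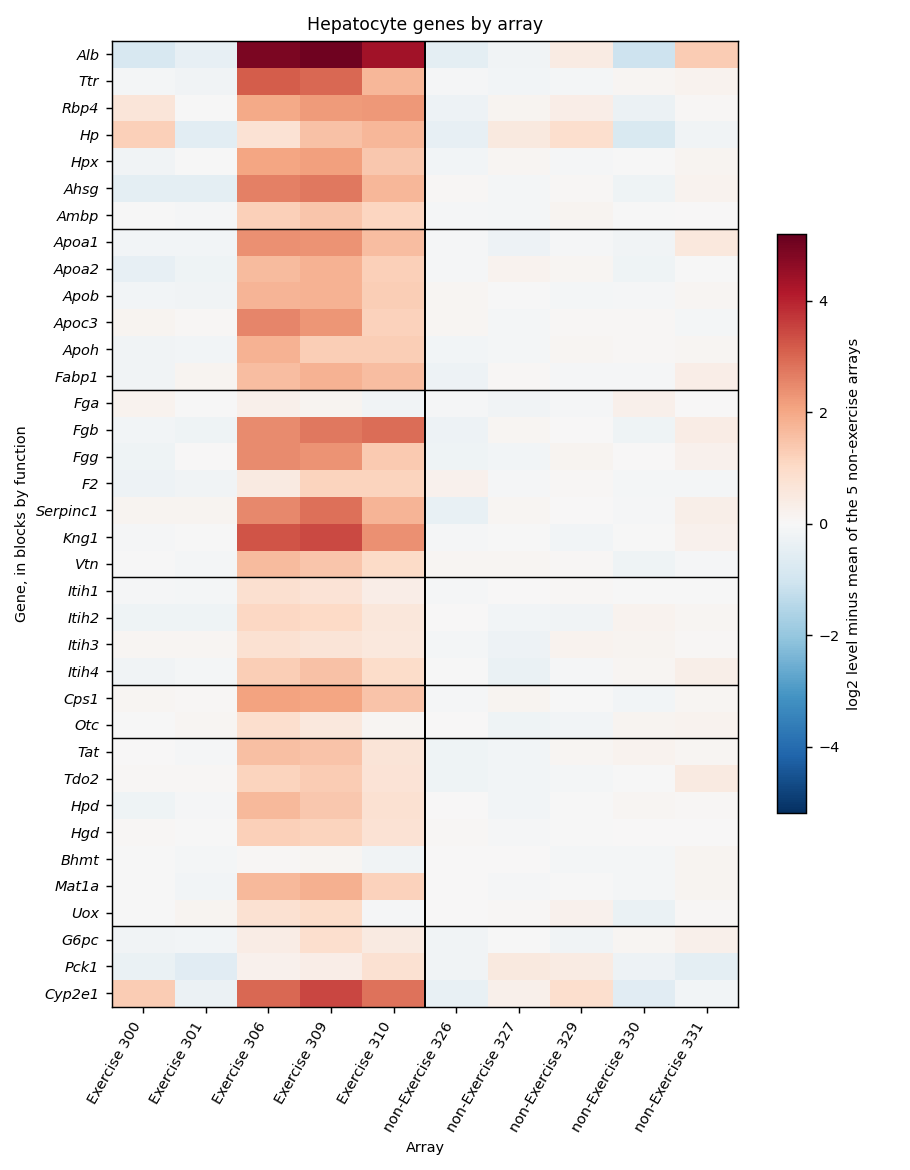
Level of each of the 36 measured hepatocyte genes on the 10 arrays, as log2 level minus the mean of the 5 non-Exercise arrays (red higher, blue lower). Rows are genes in blocks by function, and the black upright line parts the Exercise arrays on the left from the non-Exercise arrays on the right. Arrays 306, 309 and 310 are red for most genes, and arrays 300 and 301 are mostly pale, with Hp and Cyp2e1 red on array 300.

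Most of these genes were dim outside the 3 arrays. Above the dim level were 1, 0, 18, 17 and 16 of the 36 genes on Exercise arrays 300, 301, 306, 309 and 310, where 53.7%, 54.2%, 55.2%, 55.4% and 59.5% of all genes were. On non-Exercise arrays 326, 327, 329, 330 and 331 the counts were 0, 1, 1, 0 and 1, against 57.7%, 58.9%, 57.3%, 54.2% and 54.5% of all genes. The genes above it outside the 3 arrays were Hp on Exercise 300 and on non-Exercise 327 and 329, and Alb on non-Exercise 331. Even on arrays 306, 309 and 310 the share of the listed genes above the dim level was under that of all genes. By the brightest probe set of each gene, 17 of the 36 genes were above it on no array, and 13 of these still had the 3 arrays on top. They were Ambp, Apoh, Fabp1, F2, all 4 Itih genes, Tat, Tdo2, Hgd, Mat1a and G6pc, and the other 4 were Fga, Otc, Bhmt and Uox. For these 17 genes the differences described lie under the dim level, except for a second probe set of Bhmt on array 306.

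Among the carrier proteins, Ambp, the precursor of alpha-1-microglobulin and bikunin, had the narrowest range. It lay at 6.94, 6.91, 8.21, 8.42 and 8.08 on Exercise arrays 300, 301, 306, 309 and 310, against 6.91, 6.88, 7.12, 6.95 and 6.97 on non-Exercise arrays 326, 327, 329, 330 and 331. Ttr, which carries thyroid hormone, ranged over 3.33 log2 units between its lowest and highest array, and Ahsg, the plasma glycoprotein fetuin-A, over 3.26. Hpx, which binds free haem, ranged over 2.31 and Rbp4, the retinol carrier, over 2.58. All of these had arrays 306, 309 and 310 on top.

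Haptoglobin, Hp, which binds free haemoglobin, was the exception among the carriers. Its level was 10.0002, 8.20, 9.53, 10.29 and 10.50 on Exercise arrays 300, 301, 306, 309 and 310, against 8.34, 9.28, 9.63, 7.97 and 8.60 on non-Exercise arrays 326, 327, 329, 330 and 331. Exercise 300, which was low in albumin, held more Hp than Exercise 306, and non-Exercise 329 lay above Exercise 306 too.

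Apolipoproteins, the protein part of lipid particles, all had the 3 arrays on top. Apoc3, an inhibitor of triglyceride clearance, had the widest range of them and lay at 7.44, 7.36, 9.86, 9.62 and 8.50 on Exercise arrays 300, 301, 306, 309 and 310, against 7.43, 7.19, 7.35, 7.38 and 7.20 on non-Exercise arrays 326, 327, 329, 330 and 331. Apob, the backbone of very-low-density particles, had the narrowest, at 7.36, 7.32, 9.25, 9.29 and 8.75 on the Exercise arrays, against 7.58, 7.45, 7.39, 7.41 and 7.60 on the non-Exercise arrays, in the same order. For both genes Exercise 310 was the lowest of the 3 high arrays. Apoa1 and Apoa2, the main proteins of high-density particles, ranged over 2.62 and 2.24, Apoh over 2.01, and Fabp1, the fatty acid binding protein of liver, over 2.09.

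The genes of coagulation and the kinin system held several of the larger elevations. Kng1, the precursor of bradykinin, lay at 7.17, 7.22, 10.51, 10.68 and 9.60 on Exercise arrays 300, 301, 306, 309 and 310, against 7.19, 7.20, 7.11, 7.24 and 7.45 on non-Exercise arrays 326, 327, 329, 330 and 331. The mouse has a near copy, Kng2, and the probe set may also detect it. All 5 non-Exercise levels of Kng1 were below the dim level and all of arrays 306, 309 and 310 above it. Serpinc1, antithrombin, ranged over 3.23, Vtn, vitronectin, over 1.85 and F2, prothrombin, over 1.44, each with the 3 arrays on top.

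Fibrinogen, the clot protein, is built of 3 chains in equal number, and 2 of the 3 chain genes were high on the 3 arrays. Fgb lay at 7.43, 7.33, 10.004, 10.30 and 10.46 on Exercise arrays 300, 301, 306, 309 and 310, against 7.29, 7.65, 7.59, 7.32 and 7.93 on non-Exercise arrays 326, 327, 329, 330 and 331. Fgg lay at 6.63, 6.86, 9.31, 9.20 and 8.19 on the Exercise arrays, against 6.63, 6.69, 6.98, 6.86 and 7.09 on the non-Exercise arrays. Both genes parted the 3 arrays from the other 7 without overlap, but Fgb was highest on Exercise 310 and Fgg lowest of the 3 there.

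Fga, the alpha chain, lay at 7.85, 7.65, 7.95, 7.85 and 7.51 on Exercise arrays 300, 301, 306, 309 and 310, against 7.63, 7.52, 7.65, 7.96 and 7.69 on non-Exercise arrays 326, 327, 329, 330 and 331. Its second probe set, at 7.61, 7.72, 7.55, 7.41 and 7.06 on the Exercise arrays and 7.31, 7.30, 7.35, 7.73 and 7.43 on the non-Exercise arrays, had no elevation on the 3 arrays either. All of these Fga levels were below the dim level. Whether the probe sets respond to the transcript was not tested.

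**Figure D2:**
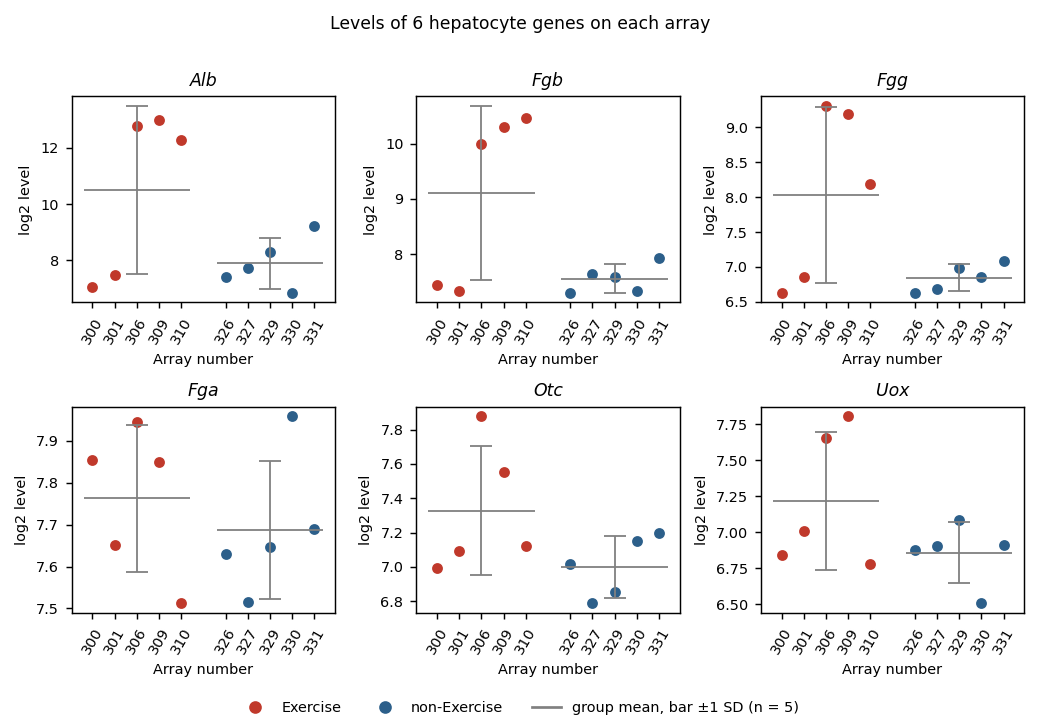
Log2 levels of Alb, Fgb, Fgg, Fga, Otc and Uox on the 5 Exercise arrays (red, left) and the 5 non-Exercise arrays (blue, right), with the array numbers along the bottom and grey bars for the group mean ± 1 SD (n = 5). Each panel has its own axis, which does not start at 0. Alb, Fgb and Fgg have 3 high Exercise arrays, Fga spans only 7.51 to 7.96, and Exercise 310 is within the non-Exercise range for Otc and Uox.

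The heavy chains of the inter-alpha-trypsin inhibitors, plasma proteins that bind hyaluronan, were raised less. Itih4 had the widest range of the 4, at 7.08, 7.16, 8.52, 8.79 and 8.20 on Exercise arrays 300, 301, 306, 309 and 310, against 7.25, 6.92, 7.19, 7.37 and 7.58 on non-Exercise arrays 326, 327, 329, 330 and 331. Itih1 had the narrowest, at 6.88, 6.84, 7.80, 7.68 and 7.28 on the Exercise arrays, against 6.89, 6.96, 7.01, 6.95 and 6.93 on the non-Exercise arrays. Itih2 and Itih3 ranged over 1.32 and 1.05. All 4 had the 3 arrays on top, with medians of 0.97, 0.88 and 0.56 above the non-Exercise mean on 306, 309 and 310.

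Of the urea cycle, Cps1, the mitochondrial enzyme that commits ammonia to it, lay at 7.18, 7.16, 9.19, 9.15 and 8.58 on Exercise arrays 300, 301, 306, 309 and 310, against 7.02, 7.22, 7.07, 6.96 and 7.21 on non-Exercise arrays 326, 327, 329, 330 and 331. Otc, which makes citrulline from its product, lay at 6.99, 7.09, 7.88, 7.55 and 7.12 on the Exercise arrays, against 7.02, 6.79, 6.85, 7.15 and 7.20 on the non-Exercise arrays. Cps1 was high on all 3 arrays, while Otc, dim throughout, was within the range of the non-Exercise arrays on 310.

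The enzymes of amino acid and purine breakdown had levels that were lower on 310 than on 309 for all 7. Of these levels, from the brightest probe set of each gene, only that of Hpd on array 306 was above the dim level. Mat1a, which makes S-adenosylmethionine in liver, had the widest range, at 6.73, 6.60, 8.43, 8.61 and 7.95 on Exercise arrays 300, 301, 306, 309 and 310, against 6.79, 6.70, 6.72, 6.65 and 6.90 on non-Exercise arrays 326, 327, 329, 330 and 331. Uox, the urate oxidase that mice keep, lay at 6.84, 7.01, 7.65, 7.81 and 6.78 on the Exercise arrays, against 6.88, 6.90, 7.09, 6.51 and 6.91 on the non-Exercise arrays. Uox was above the non-Exercise range on 306 and 309 and within it on 310, all at dim levels. The tyrosine-degrading enzymes Tat, Hpd and Hgd ranged over 1.80, 1.91 and 1.29, and the tryptophan oxygenase Tdo2 over 1.54, with the 3 arrays on top for all 4.

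Bhmt, which remethylates homocysteine, depended on the probe set. The brightest one, used here, lay at 8.14, 8.06, 8.21, 8.27 and 7.995 on Exercise arrays 300, 301, 306, 309 and 310, against 8.18, 8.20, 8.06, 8.09 and 8.33 on non-Exercise arrays 326, 327, 329, 330 and 331. A second lay at 6.98, 7.04, 8.83, 8.21 and 7.60 on the Exercise arrays, against 6.91, 6.94, 6.82, 6.98 and 7.03 on the non-Exercise arrays. On array 306 the second was above the dim level, and on the other arrays below it. The second probe set, and another that had a gap of 0.23 between the lowest of the 3 arrays and the highest of the other 7, followed the pattern of the other genes while the brightest did not. With the mean of its probe sets the log2 change of Bhmt between the groups was 0.46, against -0.03 with the brightest.

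Of the last group, the glucose-releasing enzyme G6pc had the narrowest range, at 6.72, 6.74, 7.29, 7.75 and 7.36 on Exercise arrays 300, 301, 306, 309 and 310, against 6.72, 6.85, 6.72, 6.98 and 7.17 on non-Exercise arrays 326, 327, 329, 330 and 331. Its gap between the lowest of the 3 arrays and the highest of the other 7 was 0.13, the smallest of the 30 genes with that order. Just outside, Otc had a gap of -0.08. Pck1, the gate enzyme of glucose production, lay at 7.53, 7.29, 8.09, 8.20 and 8.66 on the Exercise arrays, against 7.68, 8.39, 8.31, 7.59 and 7.38 on the non-Exercise arrays. Non-Exercise 327 and 329 had more Pck1 than Exercise 306 and 309.

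Cyp2e1, the cytochrome that oxidises ethanol, had the widest range after albumin. It lay at 8.50, 6.91, 10.17, 10.67 and 10.02 on Exercise arrays 300, 301, 306, 309 and 310, against 6.83, 7.46, 8.06, 6.59 and 7.06 on non-Exercise arrays 326, 327, 329, 330 and 331. Exercise 300 and non-Exercise 329 stood next after the 3 high arrays.

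Fat cells also make Hp, Pck1, Cyp2e1 and Rbp4, and markers of fat cells were set beside them. Adipoq, adiponectin, lay at 9.60, 7.54, 8.10, 8.79 and 10.29 on Exercise arrays 300, 301, 306, 309 and 310, against 7.72, 8.71, 9.08, 7.20 and 7.44 on non-Exercise arrays 326, 327, 329, 330 and 331. The arrays highest in Adipoq were 310, 300 and non-Exercise 329, while those highest in Hp were 310, 309 and 300. The mean level of the 11 measured fat cell genes ranged from 7.97 to 10.14 on Exercise arrays and from 8.04 to 9.22 on non-Exercise arrays. Adipoq itself was below the dim level on Exercise 301, 306 and 309 and on non-Exercise 326, 330 and 331. The part of fat cells in these levels was not tested.

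**Figure D3:**
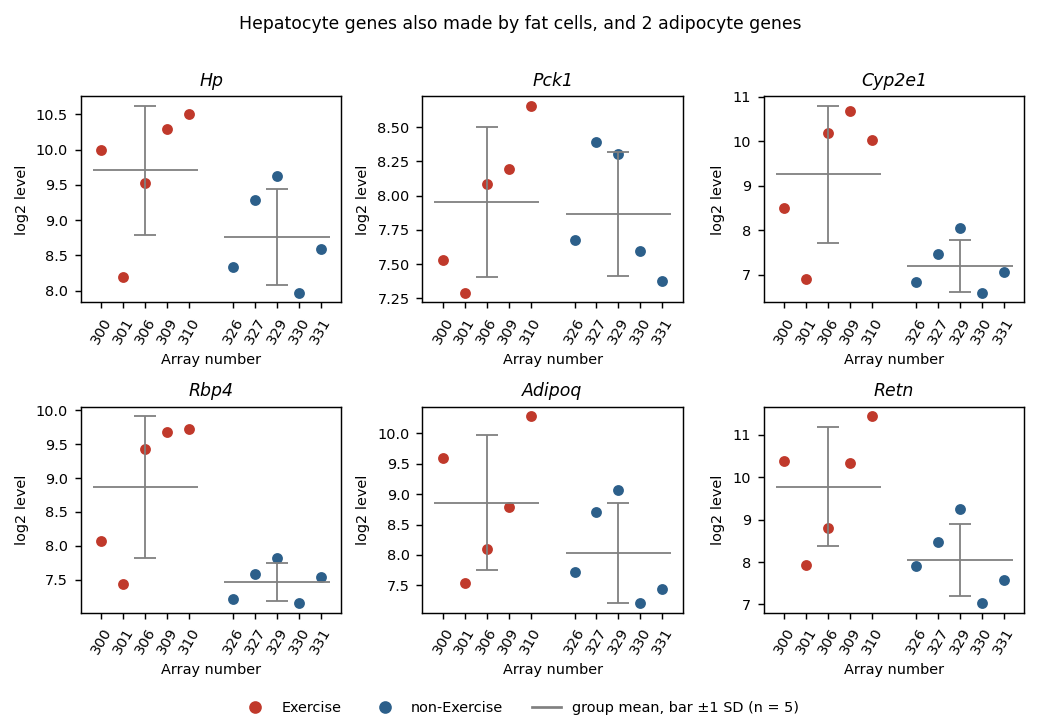
Log2 levels of the hepatocyte-list genes Hp, Pck1, Cyp2e1 and Rbp4 and of the fat cell genes Adipoq and Retn on the 5 Exercise arrays (red, left) and the 5 non-Exercise arrays (blue, right), with grey bars for the group mean ± 1 SD (n = 5). Each panel has its own axis, which does not start at 0. Adipoq and Retn are highest on Exercise 310, and Exercise 300 is among the high arrays for Hp, Adipoq and Retn.

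The 3 arrays also differed among themselves. Array 306 held the highest level of 14 genes, 309 of 16 and 310 of 4. Array 310 was below 309 for 31 of 36 genes, with a median difference of -0.56, against -0.09 over all genes, of which 36% were above. The largest shortfall was that of Ttr, at -1.24, and the largest excess that of Pck1, at 0.46. Array 306 was above 309 for 15 genes and below for 21, with a median of -0.11 (46% of all genes were above). Albumin and Cyp2e1 were also lower on 310 than on 309, by differences of -0.69 and -0.65, while Rbp4, Fgb and Hp were higher by 0.06, 0.16 and 0.20.

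**Figure D4:**
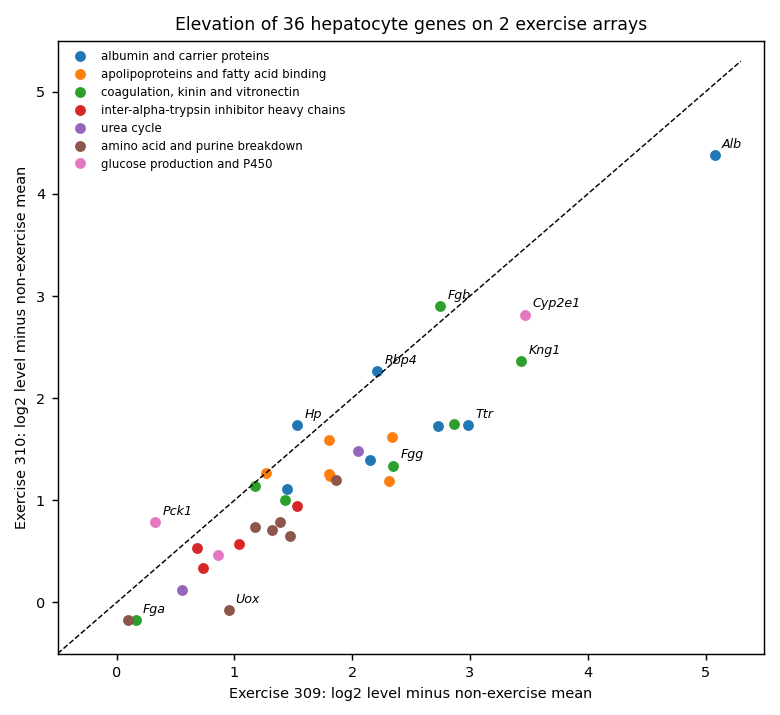
Each point is 1 of the 36 measured hepatocyte genes, with its log2 level minus the non-Exercise mean on Exercise 309 along the bottom and on Exercise 310 up the side. Colours mark the function groups and the dashed line marks equal values. Most points lie below the line, with 31 genes lower on 310, and Fgb, Rbp4, Hp and Pck1 lie above it.

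Among the non-Exercise arrays, 331 was the highest for 18 of the 36 genes, where 25.6% of all genes had it highest, and 329 for 7 (15.8% of all genes). Beside Alb at 9.22, array 331 had Apoa1 at 8.38, against at most 7.80 on the other 4, and Tdo2 at 6.66, against at most 6.16. On arrays 306, 309 and 310 Apoa1 was at 10.21, 10.19 and 9.47 and Tdo2 at 7.35, 7.50 and 6.89. For Tdo2 the distance between 331 and 310 was thus small, and both were below the dim level.

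Between the groups as labelled, limma was fitted across all 19938 genes, two-sided, with Benjamini-Hochberg adjustment at 0.05. That fit called 6 of the 36 genes higher in Exercise tumours (6.35% of all genes were), namely Rbp4, Apoc3, Serpinc1, Itih3, Cps1 and Cyp2e1, and 0 lower (10.6% of all genes). At an unadjusted p under 0.05, 27 were higher and 0 lower, with no share of all genes at that cut-off given here. The largest log2 change was that of Alb, at 2.61 ± 1.05 (SE), with means of 10.51 ± 2.98 in Exercise tumours and 7.90 ± 0.91 in non-Exercise tumours (SD, n = 5 each). For no gene, 0 of 36, did all 5 Exercise arrays lie above all 5 non-Exercise arrays (3.74% of all genes). The log2 change was above 0 for 35 of 36 genes, with a median of 0.80 against -0.02 over all genes. Since the genes were chosen for their levels on Exercise arrays, these counts are a description.

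The count turned on single arrays. It was 26 without Exercise 300 (1178 of all genes) and 28 without Exercise 301 (1528 of all genes), the Exercise arrays low in albumin. It was 2, 1 and 1 without Exercise 306, 309 and 310 (1254, 938 and 1061 of all genes). It was 1, 2, 2, 1 and 4 without non-Exercise 326, 327, 329, 330 and 331 (861, 964, 907, 857 and 1137 of all genes). The genes were chosen for their levels on Exercise arrays, so these counts are a description too. Arrays 306, 309 and 310 were also left out together, a setting chosen after the data were seen. Limma called 0 of 36 higher there (3.74% of all genes) and 1 lower (8.06%), Ahsg, at -0.52 ± 0.12 (SE). On the arrays that remained, the Ahsg levels lay between 7.15 and 7.86, all below the dim level. At an unadjusted p under 0.05 the counts there were 0 and 2, again without a share of all genes. The median log2 change was then -0.08, against 0.01 over all genes. As deposited, without quantile normalization, the table gave 13 called higher. Robust variance gave 1 and variance without the intensity trend 3. Among all genes the table as deposited gave 1370 called higher, robust variance 1032 and variance without the trend 1048. Leaving out genes with a dim mean kept only Alb and Hp of the 36, so none of the 6 was tested there.

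Other genes of the liver, from 10 lists of 202 genes, were seen in part. Of 176 measured, 51 (29.0%) had 306, 309 and 310 as their 3 highest arrays. On Exercise arrays 300, 301, 306, 309 and 310, 19.3%, 15.9%, 48.3%, 60.8% and 43.8% of them were above all non-Exercise arrays. The limma fit called 20 higher (11.4%, against 6.35% of all genes) and 7 lower (3.98%, against 10.6%) in Exercise tumours, with a median log2 change of 0.13. The higher count lay between 7 without Exercise 309 (938 of all genes) and 51 without Exercise 301 (1528 of all genes). It was 34, 10 and 9 without Exercise 300, 306 and 310, and 8, 9, 11 and 9 without non-Exercise 326, 327, 329 and 330. The lower count was 4 without Exercise 300, non-Exercise 326 or non-Exercise 330. Without the 3 arrays the counts were 3 higher (3.74% of all genes) and 11 lower (8.06% of all genes). Cd14 and Arg1, both among the 20 called higher, stayed called there, by 1.12 and 1.55 (limma adjusted p = 0.00179 and 0.00308). In the same fit 3 of 10 pan-leukocyte genes were called higher and 1 lower. The part of leukocytes in the Cd14 and Arg1 levels was not tested.

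Further plasma proteins shared the pattern in 17 of 37. Serpina1c, an alpha-1-antitrypsin with near-identical copies that may share its probes, lay at 6.40, 6.32, 9.17, 8.63 and 8.46 on Exercise arrays 300, 301, 306, 309 and 310, against 6.62, 6.47, 6.85, 6.57 and 6.39 on non-Exercise arrays 326, 327, 329, 330 and 331. Apoc1 had a log2 change of 1.26 ± 0.35 (SE, limma adjusted p = 0.0245), and the alpha-2-macroglobulin relative Pzp one of 1.21 ± 0.36 (limma adjusted p = 0.0351). Without single arrays the adjusted p ranged from 0.000761 to 0.0598 for Apoc1, with the call lost without Exercise 306, 309 or 310 or non-Exercise 326 or 330. For Pzp it ranged from 0.00768 to 0.0816, and the call held only with Exercise 300 or 301 left out. Plg, plasminogen, and Serpina6, which binds corticosteroids, reached 9.87 and 9.10 on arrays 309 and 306.

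Drug and steroid metabolism had the pattern in 17 of 30 genes. The carboxylesterase Ces1c lay at 6.82, 6.85, 9.27, 9.55 and 8.50 on Exercise arrays 300, 301, 306, 309 and 310, against 6.60, 6.90, 6.86, 6.98 and 7.13 on non-Exercise arrays 326, 327, 329, 330 and 331. Cyp3a11, the main drug-oxidising P450 of its family, was at 9.29 on 306 but at 7.44 and 7.18 on 309 and 310. The periportal Cyp2f2 was also at 8.69 on Exercise 300, where Alb was low, a level below the dim level of 8.86 there. Its log2 change was 1.25 ± 0.30 (SE, limma adjusted p = 0.0116, and 7.41e-05 to 0.0356 without single arrays). Without arrays 306, 309 and 310 its change was 0.66, with an adjusted p of 0.228.

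Bile acid genes had the pattern in 5 of 16. The bile salt importer Slc10a1 lay at 8.70, 8.997 and 7.996 on 306, 309 and 310 and between 7.12 and 7.30 on the other 7 arrays. Cyp7a1, the rate-limiting enzyme of bile acid synthesis, lay at 7.28, 6.88, 7.44, 7.56 and 7.06 on Exercise arrays 300, 301, 306, 309 and 310, against 6.99, 7.38, 7.07, 6.99 and 7.31 on non-Exercise arrays 326, 327, 329, 330 and 331. The groups overlapped for Cyp7a1, and all its levels were below the dim level.

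Acute phase proteins had the pattern in 5 of 16, and several of them were highest on array 310. Serpina3n was at 10.21, 9.04, 9.45, 10.54 and 11.35 on Exercise arrays 300, 301, 306, 309 and 310, against 8.92, 9.88, 9.81, 8.80 and 9.76 on non-Exercise arrays 326, 327, 329, 330 and 331. Lbp and Orm1 were at 10.05 and 9.21 on array 310. Saa1, an acute phase gene of liver, lay at 6.63, 6.65, 6.61, 6.44 and 6.09 on the Exercise arrays, against 6.46, 6.40, 6.42, 6.60 and 6.64 on the non-Exercise arrays, below the dim level throughout.

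Of the hepatocyte transcription factors 1 of 16 had the pattern (3.79% of all genes). Limma called 1 of the 16 higher (6.35% of all genes), Cebpa, by 0.54 (adjusted p = 0.0388). It called 1 lower (10.6% of all genes), Prox1, by -0.34 (limma adjusted p = 0.044). Without single arrays the adjusted p ranged from 0.00319 to 0.0956 for Cebpa and from 0.0321 to 0.122 for Prox1. The Cebpa call was lost without Exercise 300, 309 or 310 or non-Exercise 326, 329, 330 or 331. The Prox1 call held only without Exercise 306 or non-Exercise 331. Hnf4a, the nuclear receptor that defines the hepatocyte programme, lay at 8.73, 8.84, 8.65, 8.88 and 8.63 on Exercise arrays 300, 301, 306, 309 and 310, against 8.82, 8.67, 8.68, 8.59 and 8.67 on non-Exercise arrays 326, 327, 329, 330 and 331. Hnf4a was below the dim level on Exercise 300 and 306 and on non-Exercise 329, 330 and 331, and above it on the others. The gene with the pattern was the xenobiotic sensor Nr1i3, with 7.10, 7.39 and 7.27 on 306, 309 and 310. Its level on Exercise 300 and 301 was 6.86 and 6.72, against 6.58 to 6.93 on the non-Exercise arrays. All of these Nr1i3 levels were below the dim level. Genes of amino acid and one-carbon metabolism had the pattern in 4 of 31, among them Gnmt, the glycine methyltransferase, at 9.06, 9.42 and 8.81.

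Lists of other cells were read on the same arrays. Of 7 genes of Kupffer cells, the resident macrophages of liver, 2 were called higher in Exercise tumours (6.35% of all genes were). Vsig4 was higher by 0.43 (limma adjusted p = 0.0109) and Folr2 by 0.85 (limma adjusted p = 0.0384) on the log2 scale. Of these 2 only Folr2 had a mean level above the mean dim level. The list's mean level was 8.02 to 8.32 on Exercise arrays and 7.65 to 8.03 on non-Exercise arrays. The count was 3 without Exercise 301 or non-Exercise 327, and 1 without Exercise 300, 309 or 310 or non-Exercise 326, 330 or 331. Clec4f, the gene that defines Kupffer cells, lay at 8.98, 8.94, 8.62, 8.73 and 8.67 on Exercise arrays 300, 301, 306, 309 and 310, against 8.73, 8.59, 8.57, 8.76 and 8.92 on non-Exercise arrays 326, 327, 329, 330 and 331. For liver sinusoidal endothelium limma called 0 of 7, with 0 at an unadjusted p under 0.05. Stab2, of this list, lay at 8.34, 8.24, 8.29, 8.37 and 8.03 on the Exercise arrays, against 8.07, 8.14, 8.16, 8.46 and 8.27 on the non-Exercise arrays. All of these Stab2 levels were below the dim level.

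Of 10 pan-leukocyte genes 7 were called higher in Exercise tumours (6.35% of all genes were). Their mean levels were 9.50 to 10.78 on Exercise arrays and 9.32 to 9.60 on non-Exercise arrays. Exercise 300, low in albumin, was among the arrays high in them, with a mean level of 10.24. Of 11 fat cell genes 1 was called, Retn, and the count was 3 without Exercise 301 and 0 without Exercise 300, 309 or 310 or non-Exercise 326, 327, 330 or 331. Of 12 skeletal muscle genes limma called 0, with 0 at an unadjusted p under 0.05. Muscle mean levels were 9.23, 7.69, 9.66, 10.07 and 7.58 on Exercise arrays 300, 301, 306, 309 and 310, against 8.05 to 8.80 on non-Exercise arrays. Exercise 300, 306 and 309 were thus above the non-Exercise range, and 301 and 310 below it, with 310 the lowest. The melanocytic genes, which define the tumour, had mean levels of 12.80 to 12.97 on Exercise arrays and 12.84 to 12.99 on non-Exercise arrays. The part of these cells in the levels of the liver genes was not tested.

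**Figure D5:**
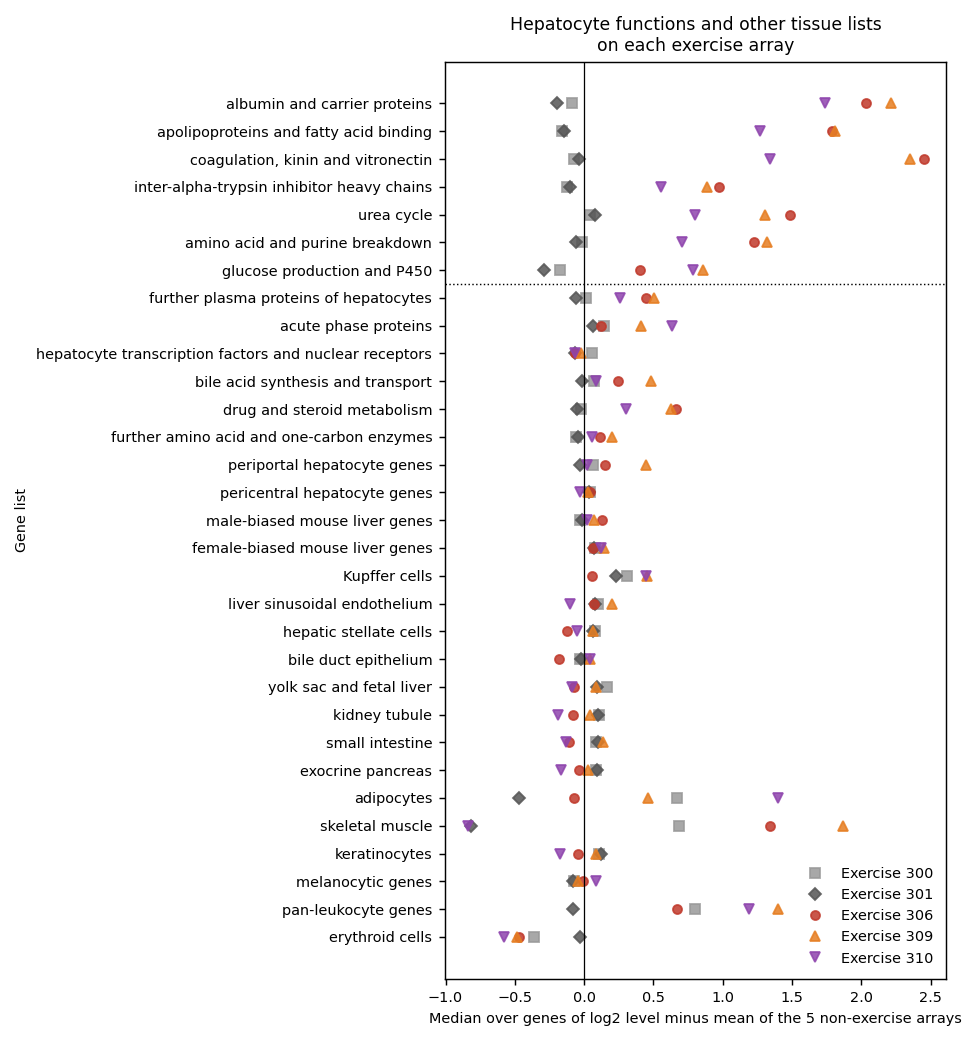
Median over the genes of each list of the log2 level minus the non-Exercise mean, on each of the 5 Exercise arrays (a symbol and colour for each). The dotted line parts the 7 function groups of the hepatocyte genes, above, from the further liver lists and the lists of other cells, below. Arrays 306, 309 and 310 lie right of 0 for every function group, with coagulation genes at 2.45, 2.35 and 1.34, while hepatocyte transcription factors lie near 0 on all 5 arrays.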

How the data were processed

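The authors deposited log2 values per probe set, made with PLIER per the submitters' processing notes, with a version not given in the sources used here. That they are log2 was taken from their range, 4.66 to 14.55. Neither the authors' background step nor any step between arrays is named in those sources. Array medians differed by 0.126, above a limit of 0.1, so the table was quantile normalized. The table had 35556 probe sets. A single gene symbol was paired with 21789 of them, several symbols with 1621 and none with 12146. Entrez identifiers of 21698 were found in GRCm38.p6, used for names only. The brightest probe set stood for each of the 999 genes that had more than 1.

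Groups came from the labels. They were compared with limma 3.58.1 (lmFit and eBayes with an intensity trend, R 4.3.3), two-sided, Benjamini-Hochberg adjusted over 19938 genes at 0.05. In 5 simulations of independent genes, 200 of them were changed equally on all Exercise arrays. Of changes of 1 log2 unit 97% were recovered and of those of 0.5 72.4%, with 7.4 false calls. Genes that vary together, and changes on only some Exercise arrays, were not simulated. Arrays correlated at 0.976 to 0.99 within Exercise, 0.987 to 0.996 within non-Exercise and 0.96 to 0.991 between them; no scan date or slide was used. The number of arrays limits the precision.

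The members and all gene lists were chosen with earlier results of these data known. Genes named were Alb, the widest and narrowest member of each function group, every member without the 3 arrays on top, up to 4 wide-ranging genes and the first gene of each other list, and the 10 unlisted genes with the widest gap. Alternatives were the deposited and the median-centred table, leaving out dim genes, averaged probe sets, other variance models, array weights, other dim levels and each array left out.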

Additional observations from a re-analysis of the deposited data

Results flagged for a closer look

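In groups of 5 arrays, the highest or lowest array of a gene was examined for a gap wider than Dixon's 95% critical value. Of 198 such groups, over 99 genes named or listed here, 8 passed, where chance gives about 1 in 20. Non-Exercise 331 stood apart for 2 of the hepatocyte genes, with Apoa1 at 8.38 (7.59 to 7.80 on the other 4 arrays) and Tdo2 at 6.66 (5.96 to 6.16). Exercise 306 stood apart for Cyp3a11, at 9.29 (6.75 to 7.44). Exercise 301 was low for Cyp2f2, at 7.13 (8.60 to 9.12). Exercise 310 was high for the bile duct keratin Krt19, at 7.94 (6.62 to 6.82), and low for the pancreatic elastase Cela1, at 8.97 (9.29 to 9.36). Non-Exercise 330 was low for the transporter Abcc2, at 6.74 (7.13 to 7.18), and for Cyp3a11, at 6.71 (6.80 to 6.84).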

How the results depend on the processing

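Of 887 values recomputed under an alternative, 784 stayed within 1.5 times for a count or within 1 SD of the replicates for a log2 change, which for small changes allows a shift in proportion or sign. Of the 6 called genes 0 changed sign. The log2 changes of Bhmt and Pck1 took both signs without single arrays, from -0.07 to 0.01 and from -0.09 to 0.25. Without Exercise 306, 309 and 310, 12 of 36 were above 0. Called higher were 6 of the hepatocyte genes, against 13 with the table as deposited, 3 without the intensity trend, 1 with robust variance, and 1 to 28 without single arrays. Leaving out dim genes kept 2 of the 36, Alb and Hp, 31 of the 176 further liver genes and 2 of the 7 Kupffer cell genes. Its counts, 0 of the hepatocyte genes among them, are therefore no repeat of the test for the genes it removed. Of further liver genes 20 were called higher, against 3 with dim genes left out, 13 without the trend, 11 with robust variance and 7 to 51 without single arrays; 7 were called lower, against 4 with dim genes left out and 4 to 7 without single arrays. Kupffer cell genes called numbered 4 as deposited, 1 with dim genes left out, without the trend or with robust variance, and 1 to 3 without single arrays. Fat cell genes called numbered 0 without the trend, with robust variance or with array weights, and 0 to 3 without single arrays. Pan-leukocyte genes called numbered 4 with robust variance and 5 to 9 without single arrays. Without Exercise 306, 309 and 310 together, 746 genes in all were called higher, with 0 of the hepatocyte genes higher and 1 lower, 3 further liver genes higher and 11 lower, 0 Kupffer and 0 fat cell genes, and 3 pan-leukocyte genes higher and 1 lower. Over all genes, the counts without single arrays were 857 to 1528 higher and 1435 to 2333 lower. With the table as deposited, Exercise 300 was above all non-Exercise arrays for 7 genes and Exercise 301 for 3, and without single non-Exercise arrays for 4 to 6 and 0 to 3. With the dim level at the 90th percentile of olfactory receptor genes, 2 genes passed it on Exercise 300 and 1, 4, 3 and 3 on non-Exercise 326, 327, 329 and 331; at the 99th, 9 passed on Exercise 310 and 0 on non-Exercise 331. No paired analysis was possible because the numbers in the titles are not shared between the groups. Dim levels limit the 17 hepatocyte genes that were above the dim level on no array by their brightest probe set.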

Other observations

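Outside all lists, the 10 genes with the widest gap between the lowest of arrays 306, 309 and 310 and the highest of the other 7 were Ifi203, Nkg7, H2-Aa, H2-Eb1, Ddx60, H2-Ab1, Slamf9, Slc27a2, Inmt and H2-M3. The interferon-inducible Ifi203 lay at 9.39, 9.02, 10.56, 10.59 and 10.67 on Exercise arrays 300, 301, 306, 309 and 310, against 9.31, 8.66, 8.60, 8.34 and 8.21 on non-Exercise arrays 326, 327, 329, 330 and 331. H2-Aa, which with H2-Eb1 and H2-Ab1 encodes class II antigen-presenting molecules, lay at 10.40, 9.57, 11.48, 11.93 and 12.29 on the Exercise arrays, against 10.10, 9.56, 9.66, 9.21 and 9.43 on the non-Exercise arrays. Slc27a2, a gene that liver also uses, lay at 7.81, 7.72 and 7.63 on 306, 309 and 310 and at 6.33 to 6.73 on the other 7. Of the 100 genes with the widest gaps, 23 were on the hepatocyte list, 15 were further liver genes and 62 were on no list.

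Of genes known to differ between male and female mouse liver, 1 of 14 male-biased and 2 of 13 female-biased ones had the 3 arrays on top, a pattern of 3.79% of all genes. The female-biased P450 Cyp2b9 was at 8.38, 7.86 and 7.68 on arrays 306, 309 and 310 and at 6.41 to 6.82 on the other 7. The major urinary protein Mup3, whose near-identical copies may share its probes, was at 6.97, 7.998 and 7.56, against 6.47 to 6.64 on the non-Exercise arrays. All of these Cyp2b9 and Mup3 levels were below the dim level. Periportal and pericentral genes had the pattern in 1 of 8 and 1 of 9.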
